A study of Mus musculus with 12 samples.

Results

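The genes described here encode the coat proteins of lipid droplets and the proteins that form, fill or fuse droplets: the perilipins Plin1 to Plin5, Fitm1, Fitm2, Cidea, Cidec and Bscl2. They were chosen by name, as the rows of the gene table whose name equals one of these 10 symbols. Of the 10 genes, 9 had a row of their own among the 39248 rows of the table, each of them 1 row, and Bscl2 appeared only in a row shared with its neighbour Hnrnpul2. Of the 9, 6 had a mean of at least 1 FPKM over the 12 libraries (FPKM is fragments per kilobase of transcript, scaled to all mapped fragments) and entered the test across all rows. Plin5, Fitm1 and Cidea lay below that mean and are described by their values.

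Lipid droplets are stores of triglyceride that bud from the endoplasmic reticulum and are covered by a phospholipid monolayer and a coat of proteins. Perilipins make up much of that coat and control the access of lipases to the stored fat, while FIT proteins and seipin act in the endoplasmic reticulum membrane where droplets arise, and CIDE proteins let neighbouring droplets pass lipid to each other so that large droplets grow. In fat cells Plin1 and Cidec are known for the large droplets of mature adipocytes, and Plin2, Plin3 and Plin4 for smaller or newly made ones.

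The libraries came from 3T3-L1, a mouse line of fibroblast-like cells that differentiates into fat-storing adipocytes in culture. The Zfp407 siRNA arm had 6 libraries, 3 with each of 2 siRNAs against Zfp407, a zinc finger protein gene, and the Control siRNA arm had 6 libraries with a control siRNA. Every library, controls included, came from a separate electroporation of 0.75 nmol siRNA into differentiated cells, 2 days after differentiation. By its title, the series is about insulin-driven uptake of glucose and about Glut4 transcripts. The columns of the Zfp407 siRNA arm are numbered 1 to 6 and do not show which siRNA was used, so the 6 were taken as 1 arm, and the p-values reflect how far electroporations of 1 line differ, with any siRNA difference included.

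The promoters of Plin4, Plin2 and Fitm2, the 3 members that passed a test against a minimum fold, are printed so that the letters at their start sites can be read beside the values. Each window runs from 250 bases before to 50 bases after the start site and is taken from RefSeq on GRCm38.p6, written 5′ to 3′ on the gene's own strand, which is the minus strand for all 3. They lie at chr17:56109733-56110032 for Plin4, chr4:86670010-86670309 for Plin2 and chr2:163472580-163472879 for Fitm2.
Plin4: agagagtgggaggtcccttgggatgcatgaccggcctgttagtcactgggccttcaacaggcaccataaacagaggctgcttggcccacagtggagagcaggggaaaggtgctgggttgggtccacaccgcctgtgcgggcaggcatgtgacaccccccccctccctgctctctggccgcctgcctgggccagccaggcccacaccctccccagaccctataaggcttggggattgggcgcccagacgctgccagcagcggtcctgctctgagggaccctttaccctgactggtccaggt
Plin2: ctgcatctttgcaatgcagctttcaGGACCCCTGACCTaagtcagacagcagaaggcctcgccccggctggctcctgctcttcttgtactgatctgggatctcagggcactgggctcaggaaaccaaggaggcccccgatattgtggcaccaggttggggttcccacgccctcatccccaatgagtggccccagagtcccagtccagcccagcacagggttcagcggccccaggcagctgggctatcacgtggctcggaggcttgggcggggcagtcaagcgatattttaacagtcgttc
Fitm2: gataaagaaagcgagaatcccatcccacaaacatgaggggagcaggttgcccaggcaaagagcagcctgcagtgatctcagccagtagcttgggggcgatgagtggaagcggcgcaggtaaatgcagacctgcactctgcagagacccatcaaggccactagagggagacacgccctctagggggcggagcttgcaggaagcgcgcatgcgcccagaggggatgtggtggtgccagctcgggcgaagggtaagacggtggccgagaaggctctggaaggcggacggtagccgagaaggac
The capitals in the Plin2 window mark a match, on the other strand, to the direct repeat of AGGTCA spaced by 1 base that PPAR and RXR are known to bind, with 2 mismatches and its first base at position −225 from the start site. An exact AGGTCA on that strand lies within the same capitals, at −218. The Plin4 and Fitm2 windows held no match to the repeat with up to 2 mismatches, to AGGTCA or to the C/EBP motif TTNNGCAA, on either strand.

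Windows were found for 9 of the 10 genes, 13 in all, since some genes have several. Of all 32851 promoters in the same table, 3.86% held the direct repeat, 16.3% AGGTCA and 10.8% the C/EBP motif. Among the other members, the Plin1 window held the C/EBP motif at −58 and at −187, and 1 Cidec window held it at −198. AGGTCA stood in 1 Bscl2 window at −202 and in the Plin5 windows at −170 or 13. These are matches of letters and were not tested against the expression values.

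The coat transcripts did not move together. In the Zfp407 siRNA arm Plin4 was lower by 48.4% and Plin3 by 17.8%, while Plin2 was higher by 50.7% and the droplet-forming gene Fitm2 by 46.0%. Plin1 did not pass the test, and Cidec, which encodes the droplet-fusion protein and had the highest level of the 10 genes, was lower by 8.39%. Of the 6 genes tested, 2 were called higher and 3 lower (limma on log2(FPKM + 1), Benjamini-Hochberg adjusted p under 0.05 over all 14706 rows tested). Across all rows tested 36.4% were called, 11.6% higher and 24.8% lower, so calls were common in this comparison. Against a minimum fold of 1.2, 3 of the 6 passed (Plin4, Plin2 and Fitm2), where 5.82% of all rows did. The arms did not overlap in 4 of the 6 (Plin2, Plin3, Plin4 and Fitm2), where 19.5% of all rows had arms that did not overlap. The median log2 fold change was −0.11 over the 6 genes and −0.05 over all rows tested.

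**Figure D1:**
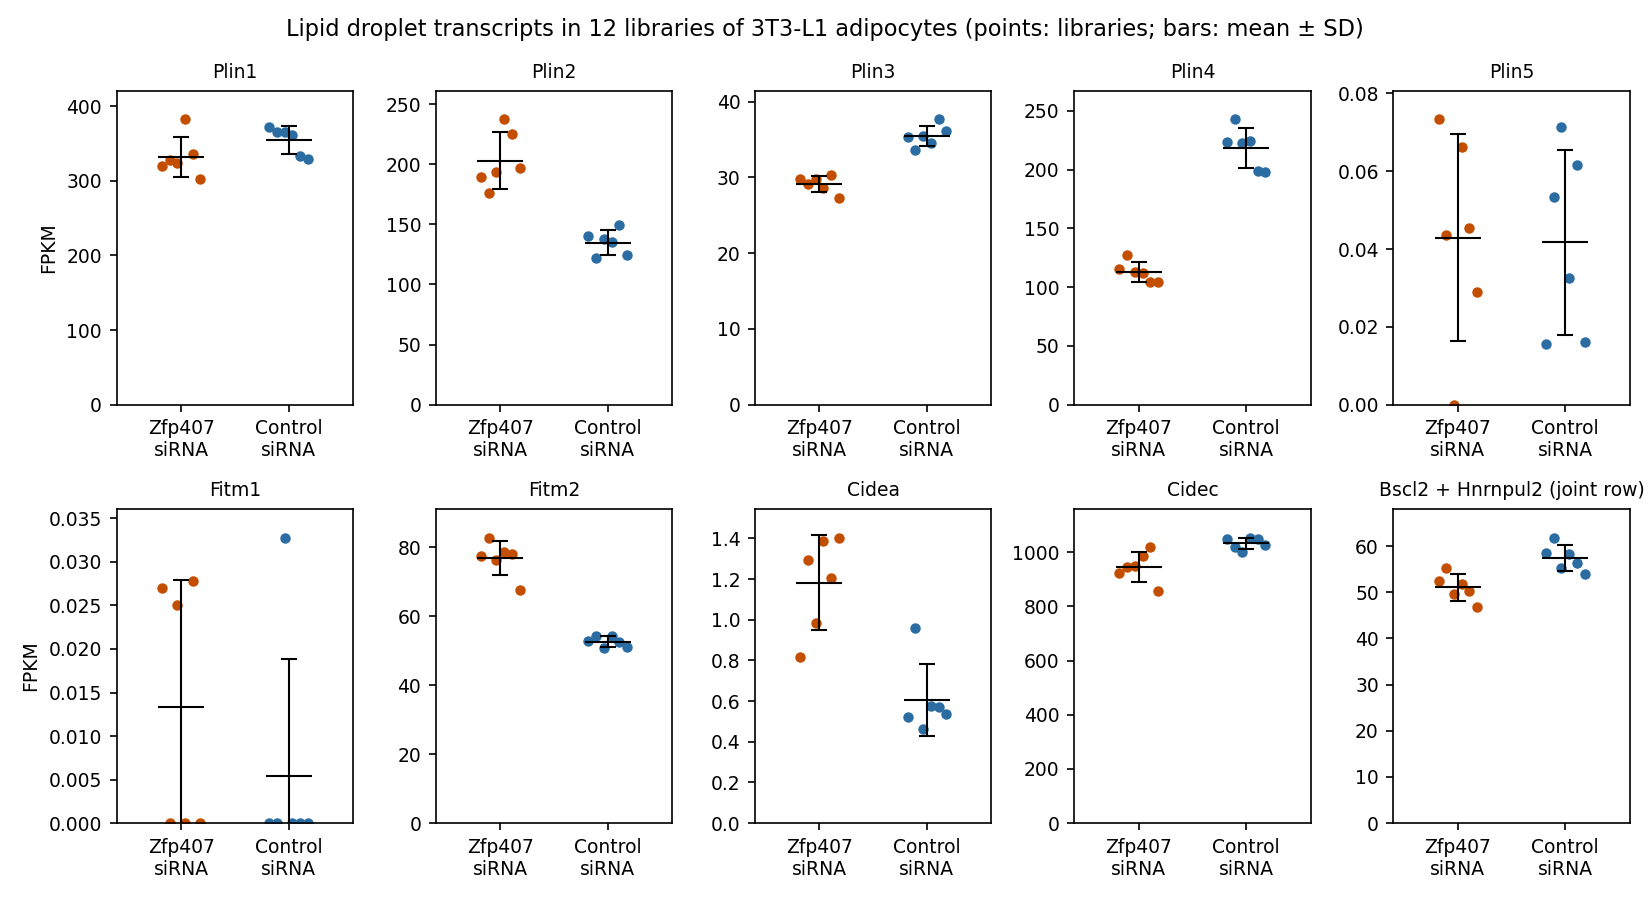
FPKM of each gene in the 6 Zfp407 siRNA libraries (left, orange points) and the 6 Control siRNA libraries (right, blue points), with the mean and SD as bars and each vertical axis starting at 0. Plin2, Plin3, Plin4 and Fitm2 show no overlap between the arms, and Plin5 and Fitm1 lie under 0.1 FPKM in every library.

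Plin4 (XLOC_014834, row locus chr17:56079657-56109941, minus strand) encodes the perilipin known to coat small, newly made droplets in adipocytes, and it had the largest change of the 6 genes tested. Its FPKM was 115, 127, 113, 112, 104 and 104 in Zfp407 siRNA libraries 1 to 6, against 223, 243, 223, 224, 199 and 198 in Control siRNA libraries 1 to 6. Every Zfp407 siRNA library lay far below every Control siRNA library, and the arms were about as tight as each other relative to their means. Within the Zfp407 siRNA arm, libraries 4, 5 and 6 lay below libraries 1, 2 and 3, library 4 only just. The means were 113 ± 8.40 FPKM in Zfp407 siRNA libraries and 218 ± 17.1 FPKM in Control siRNA libraries (SD, n = 6 each). On the log2 scale the fold change was −0.95 (SE 0.06, 95% interval −1.08 to −0.81, limma adjusted p = 3.9e-07). By exact permutation the two-sided p was 0.00216, the smallest that 924 divisions of the libraries allow. Against the minimum fold the limma adjusted p was 8.0e-06. By size, 3.47% of all rows tested changed at least as much in either direction, and Plin4 was number 138 among the rows that were lower. In the authors' deposited table Plin4 had a log2 fold change of −0.97 and a q-value of 1.1e-04, marked as significant.

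The Plin4 row shares its locus with Hdgfrp2, a gene on the opposite strand whose GENCODE M21 gene (named Hdgfl2 there, 56079634 to 56100607) ends just past the end of the Plin4 gene (56100591 to 56109803). Hdgfrp2 moved the other way. It had 27.0 ± 1.74 FPKM in Zfp407 siRNA libraries and 20.02 ± 1.07 FPKM in Control siRNA libraries (SD, n = 6 each), a log2 fold change of 0.41 (limma adjusted p = 4.7e-05) with no overlap between the arms. No source used here says whether the libraries keep strand, so fragments in the short stretch that both genes share cannot be assigned to a strand. Their part in the Plin4 value was not tested.

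Plin2 (XLOC_024393, chr4:86648386-86670060, minus strand) encodes the perilipin found in most cell types, a protein known to be degraded when it is not bound to a droplet. Its FPKM was 189, 176, 193, 238, 225 and 197 in Zfp407 siRNA libraries 1 to 6, against 140.5, 122, 137, 135, 149 and 124 in Control siRNA libraries 1 to 6. All Zfp407 siRNA libraries lay above all Control siRNA libraries. Within the Zfp407 siRNA arm, libraries 4, 5 and 6 lay above libraries 1, 2 and 3, with libraries 4 and 5 the highest. The means were 203 ± 23.4 FPKM in Zfp407 siRNA libraries and 135 ± 10.3 FPKM in Control siRNA libraries (SD, n = 6 each). This was a log2 fold change of 0.58 (SE 0.08, 95% interval 0.42 to 0.75, limma adjusted p = 1.2e-04), with an exact permutation p of 0.00216, two-sided. The change passed the minimum fold (limma adjusted p = 0.0148). By size Plin2 was number 634 among the rows tested that were higher. The authors' deposited table gives a log2 fold change of 0.58 for Plin2, with a p-value of 0.00253 and a q-value of 0.116, not marked as significant.

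Plin3 (XLOC_014841, chr17:56278011-56290527, minus strand) encodes the perilipin that waits in the cytosol and moves onto new droplets. Its FPKM was 29.8, 29.2, 29.8, 28.7, 30.2 and 27.2 in Zfp407 siRNA libraries 1 to 6, against 35.3, 33.7, 35.4, 34.5, 37.7 and 36.1 in Control siRNA libraries 1 to 6. The change was small but the libraries of each arm were close together, so the arms did not overlap. The means were 29.1 ± 1.09 FPKM in Zfp407 siRNA libraries and 35.5 ± 1.38 FPKM in Control siRNA libraries (SD, n = 6 each), with a log2 fold change of −0.27 (SE 0.04, 95% interval −0.35 to −0.20, limma adjusted p = 1.1e-04). The exact permutation p was 0.00216, two-sided, and the change did not pass the minimum fold. For Plin3 the authors' deposited table gives −0.30 on the log2 scale and a q-value of 0.503.

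Plin1 (XLOC_031904, chr7:79719910-79733021, minus strand) encodes the main perilipin of mature fat cells, which holds the lipase co-activator ABHD5 until protein kinase A releases it. Its FPKM was 319, 328, 325, 383, 336 and 302 in Zfp407 siRNA libraries 1 to 6, against 373, 365, 365, 361, 334 and 329 in Control siRNA libraries 1 to 6. The arms overlapped: Zfp407 siRNA library 4 was the highest of all 12, and 4 of the other 5 lay below every Control siRNA library. The means were 332 ± 27.3 FPKM in Zfp407 siRNA libraries and 355 ± 18.3 FPKM in Control siRNA libraries (SD, n = 6 each). The log2 fold change was −0.10 (SE 0.06, 95% interval −0.22 to 0.03) and did not pass (limma adjusted p = 0.213), with an exact permutation p of 0.132, two-sided. Without Zfp407 siRNA library 4 it passed, with a log2 fold change of −0.14 (limma adjusted p = 0.0384).

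Plin5 (XLOC_014835) encodes the perilipin of oxidative tissues such as heart, where it ties droplets to mitochondria. It was close to 0 throughout: 0.0734, 0.0436, 0, 0.0663, 0.0453 and 0.0291 FPKM in Zfp407 siRNA libraries 1 to 6, against 0.0157, 0.0534, 0.0713, 0.0326, 0.0616 and 0.0160 FPKM in Control siRNA libraries 1 to 6. The arms covered the same range, and the two-sided p of log2(FPKM + 1) by exact permutation was 0.950.

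Plin1, Plin2 and Plin4 made up most of the perilipin transcripts, and the place of Plin2 and Plin4 in the order of levels was exchanged. Plin2 took 29.0%, 26.7%, 29.3%, 31.2%, 32.4% and 31.2% of the summed FPKM of Plin1 to Plin5 in Zfp407 siRNA libraries 1 to 6, against 18.2%, 15.9%, 18.1%, 17.9%, 20.7% and 18.1% in Control siRNA libraries 1 to 6. Plin4 took 17.7%, 19.2%, 17.1%, 14.7%, 15.0% and 16.6% in Zfp407 siRNA libraries 1 to 6, against 28.9%, 31.8%, 29.3%, 29.7%, 27.6% and 28.8% in Control siRNA libraries 1 to 6. Neither share overlapped between the arms. The mean share of Plin2 was 11.8 percentage points higher and that of Plin4 12.7 points lower in the Zfp407 siRNA arm. A share within a library does not depend on a factor that scales the whole library. It does depend on any processing that treats single rows differently. These shares restate the changes of single genes and carry no test.

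The share of Plin1 was close between the arms, with overlapping ranges, 49.0% ± 0.888 in Zfp407 siRNA libraries and 47.7% ± 0.675 in Control siRNA libraries (SD, n = 6 each). Plin3 stood at 4.32% ± 0.286 in Zfp407 siRNA libraries and 4.78% ± 0.365 in Control siRNA libraries. The summed perilipin FPKM was 677 ± 46.2 in Zfp407 siRNA libraries and 743 ± 32.5 in Control siRNA libraries, with ranges that overlapped (630.4 to 761 and 688 to 772). The ratio of Plin2 to Plin4 was 1.82 ± 0.298 in Zfp407 siRNA libraries, where it ran between 1.39 and 2.16, and 0.621 ± 0.0795 in Control siRNA libraries, where it ran between 0.501 and 0.750.

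**Figure D2:**
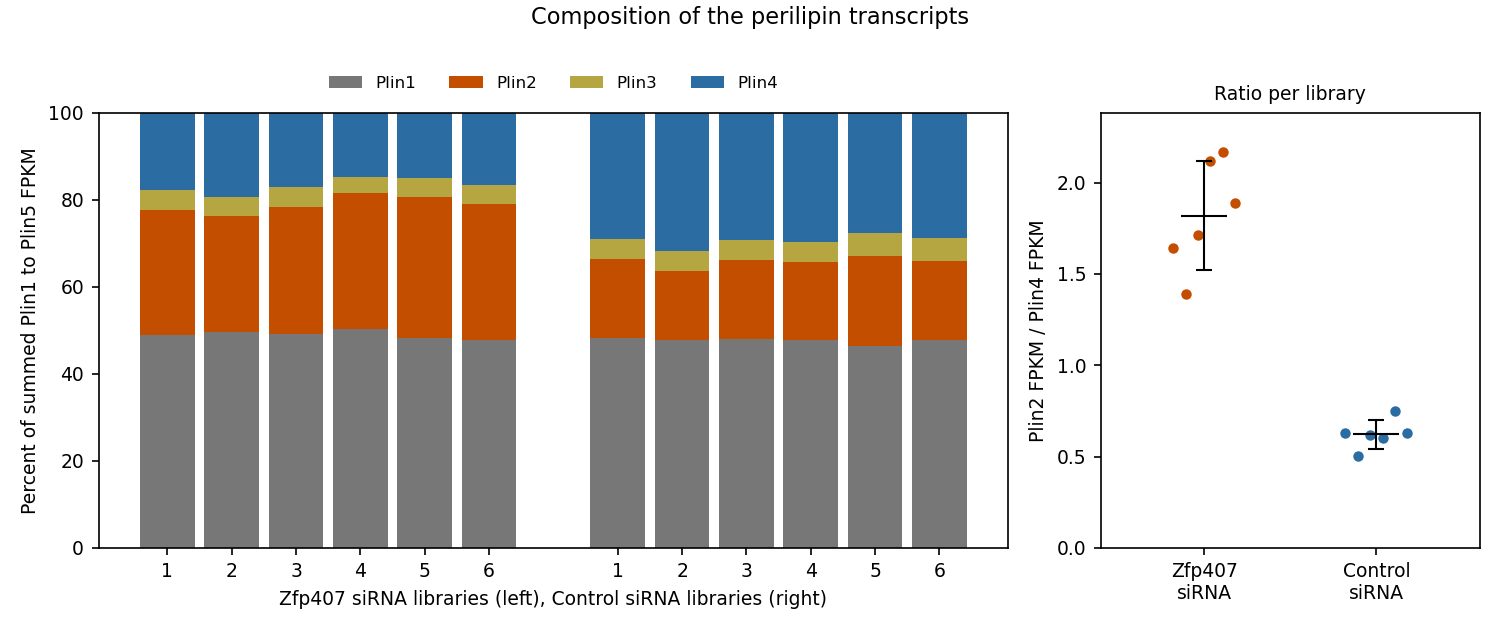
Left, the share of the summed FPKM of Plin1 to Plin5 taken by each perilipin in every library, in percent (Plin5, under 0.1%, is too small to be drawn); right, the ratio of Plin2 to Plin4 FPKM per library with mean and SD. The Plin2 band is wider and the Plin4 band narrower in all 6 Zfp407 siRNA libraries, and the ratio is above 1 in each of them and below 1 in each Control siRNA library.

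Fitm2 (XLOC_020326, row locus chr2:163461268-163473003, minus strand) encodes FIT2, an endoplasmic reticulum protein needed for normal budding of droplets. Its FPKM was 77.4, 82.8, 76.3, 78.5, 78.02 and 67.6 in Zfp407 siRNA libraries 1 to 6, against 52.9, 54.2, 50.8, 54.2, 52.6 and 50.98 in Control siRNA libraries 1 to 6. The Control siRNA libraries were tightly grouped, and even the lowest Zfp407 siRNA library, number 6, was well above them. The means were 76.8 ± 5.01 FPKM in Zfp407 siRNA libraries and 52.6 ± 1.505 FPKM in Control siRNA libraries (SD, n = 6 each). The rise on the log2 scale was 0.54 (SE 0.05, 95% interval 0.44 to 0.63, limma adjusted p = 3.2e-06), the exact permutation p was 0.00216, two-sided, and the change passed the minimum fold (limma adjusted p = 0.00127). By size Fitm2 was number 686 among the rows tested that were higher. In the authors' deposited table Fitm2 had a log2 fold change of 0.55 and a q-value of 0.00735, marked as significant.

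The start of Fitm2 overlaps 2310001K24Rik, a transcript on the plus strand (163471957 to 163473005 in GENCODE M21) that covers the first part of the Fitm2 gene (163466379 to 163472629) and the whole promoter window printed above. Its level was lower than that of Fitm2 and it was higher in the Zfp407 siRNA arm too, with 8.19 ± 1.50 FPKM in Zfp407 siRNA libraries and 3.67 ± 0.727 FPKM in Control siRNA libraries (SD, n = 6 each). Its log2 fold change was 0.98 (limma adjusted p = 1.4e-04, and 0.00279 against the minimum fold), with no overlap between the arms. Without strand, fragments from the shared stretch cannot be told apart between these genes, and their part in either change was not tested.

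Fitm1 (XLOC_010005) encodes FIT1, the relative known mainly from skeletal muscle and heart. It was listed at 0.0270, 0, 0.0250, 0, 0.0278 and 0 FPKM in Zfp407 siRNA libraries 1 to 6, against 0, 0, 0.0328, 0, 0 and 0 FPKM in Control siRNA libraries 1 to 6. No fold is given for values of this kind.

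Bscl2 encodes seipin, which sits where a droplet meets the endoplasmic reticulum and is known from an inherited loss of fat tissue in people. Its reads were reported together with those of Hnrnpul2, a nuclear RNA-binding protein gene, in a joint row (XLOC_016144, chr19:8808757-8848683), so no value belongs to Bscl2 alone. The joint row had 52.5, 55.3, 49.7, 51.8, 50.3 and 46.8 FPKM in Zfp407 siRNA libraries 1 to 6, against 58.4, 61.8, 55.4, 58.3, 56.4 and 53.9 FPKM in Control siRNA libraries 1 to 6. The arms overlapped, since Zfp407 siRNA library 2 reached above the lowest Control siRNA library. Its log2 fold change was −0.17 with an SE of 0.05 (limma adjusted p = 0.0131), and the two-sided p by exact permutation was 0.00433. The call was lost when each library was centred on its median (limma adjusted p = 0.0574), under quantile normalization (0.150) and after rescaling without short-RNA and mitochondrial rows (0.0659). In the authors' deposited table the joint row had a q-value of 1.00.

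Cidec (XLOC_029073, chr6:113423693-113435910, minus strand) encodes the CIDE protein that gathers fat into large droplets in white adipocytes. Its FPKM was 921, 944, 949, 986, 1019 and 856 in Zfp407 siRNA libraries 1 to 6, against 1047, 1019.5, 1001, 1054, 1048 and 1026 in Control siRNA libraries 1 to 6. The Control siRNA libraries lay close together, while the Zfp407 siRNA libraries spread more widely and one of them, library 5, fell inside the range of the controls. The means were 946 ± 56.1 FPKM in Zfp407 siRNA libraries and 1033 ± 20.4 FPKM in Control siRNA libraries (SD, n = 6 each), with a log2 fold change of −0.13 (SE 0.05, 95% interval −0.23 to −0.03, limma adjusted p = 0.0454) and a two-sided p of 0.00433 by exact permutation. This call was near the threshold and was lost in 14 of 21 alternative analyses. Among them were 10 of the 12 that leave out a library, all but those without Zfp407 siRNA library 4 or 5, with a limma adjusted p of up to 0.0870. In the authors' deposited table Cidec had a log2 fold change of −0.14 and a q-value of 1.00, not marked as significant. The ratio of Cidec to summed perilipin FPKM was 1.40 ± 0.0624 in Zfp407 siRNA libraries and 1.39 ± 0.0695 in Control siRNA libraries.

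Cidea (XLOC_015491) encodes the CIDE protein best known from brown fat. It was far lower than Cidec, with 0.818, 1.29, 0.984, 1.39, 1.21 and 1.404 FPKM in Zfp407 siRNA libraries 1 to 6, against 0.524, 0.957, 0.463, 0.574, 0.572 and 0.536 FPKM in Control siRNA libraries 1 to 6. The arms overlapped in that Control siRNA library 2 stood above Zfp407 siRNA library 1, and the other Control siRNA libraries lay below every Zfp407 siRNA library. The means were 1.18 ± 0.235 FPKM in Zfp407 siRNA libraries and 0.604 ± 0.178 FPKM in Control siRNA libraries (SD, n = 6 each). On the log2(FPKM + 1) scale, which understates the change of a low gene, the difference was 0.44 (exact permutation p = 0.00433, two-sided). With no filter on low values limma gave an adjusted p of 0.00362, whereas the authors' deposited table gives a q-value of 1.00. The start of the Cidea gene (67343604 to 67367785) overlaps B430212C06Rik on the opposite strand (67321209 to 67344103 in GENCODE M21). That gene moved the other way, with no overlap between the arms. It had 0.660 ± 0.190 FPKM in Zfp407 siRNA libraries and 1.09 ± 0.161 FPKM in Control siRNA libraries. The part of shared fragments in the Cidea value was not tested.

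**Figure D3:**
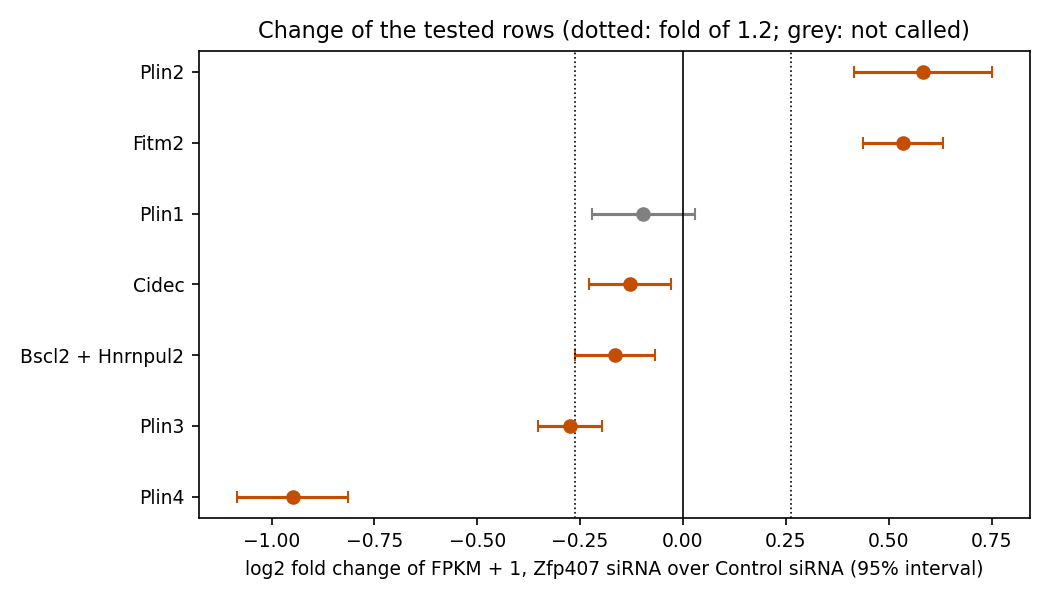
The log2 fold change of FPKM + 1, Zfp407 siRNA over Control siRNA, of the tested rows with 95% intervals, orange where the row was called and grey where it was not; dotted lines mark a fold of 1.2. Plin2 at 0.58 and Fitm2 at 0.54 lie to the right, Plin4 at −0.95 far to the left, and the rows between −0.27 and −0.10 lie near or inside the dotted lines.

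In order of level, which FPKM allows because it is per length, the Zfp407 siRNA arm ran Cidec, Plin1, Plin2, Plin4, Fitm2, the joint row and Plin3. The Control siRNA arm ran Cidec, Plin1, Plin4, Plin2, the joint row, Fitm2 and Plin3, and there the joint row and Fitm2 were neighbours whose ranges overlapped. All other neighbours in these orders were apart in every library. Among 32588 named rows outside the short RNAs and the mitochondrial chromosome, ordered by mean level, Plin4 stood at place 1072 in the Zfp407 siRNA arm and 505 in the Control siRNA arm. Plin2 stood at 531 in the Zfp407 siRNA arm and 919 in the Control siRNA arm. Cidec stood at 114 in the Zfp407 siRNA arm and 85 in the Control siRNA arm.

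The rows most like a member over the 12 libraries, by Pearson correlation of log2(FPKM + 1) among 10011 rows, were sought for 4 members. For Plin4 these were Smarcc2 (0.991), Slc25a42 (0.991) and Plcb3 (0.990), and for Plin2 they were Hnrnpa2b1 (0.980), Hnrpll (0.973) and Gm7292 (0.968). For Cidec they were Snx18 (0.939), Ankrd46 (0.933) and Akt2 (0.932), and for Plin1 they were Bbc3 (0.936), Pfkl (0.923) and 2310047M10Rik (0.921). Where a gene's arms do not overlap, as for Plin2 and Plin4, such a value carries the difference between the arms, and all 12 points share the libraries' scaling.

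Other genes listed for droplet-associated proteins, not all of them proteins of the droplet surface, were mostly lower. Of 25 such genes 19 had a row of their own and 18 were tested, of which 1 was called higher, 11 lower and 6 not called, with a median log2 fold change of −0.18. Over all rows tested 11.6% were called higher and 24.8% lower, with a median of −0.05. Cav1, the main protein of caveolae, which also reaches droplets, had 670.5 ± 73.9 FPKM in Zfp407 siRNA libraries and 1035 ± 63.3 FPKM in Control siRNA libraries (SD, n = 6 each; log2 fold change −0.63, limma adjusted p = 4.5e-05), the one gene of this list past the minimum fold. Tmem159, the seipin partner also called promethin, had 11.3 ± 1.53 FPKM in Zfp407 siRNA libraries and 15.8 ± 0.784 FPKM in Control siRNA libraries (log2 fold change −0.45, limma adjusted p = 5.7e-04). Mettl7a1, a droplet-associated methyltransferase-like protein, and Vps13c, a lipid-transfer protein, each changed by −0.31 (limma adjusted p = 2.0e-04 for Mettl7a1 and 0.00276 for Vps13c).

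Genes of fat release from the droplet and its control were lower or not called. Of 12 genes 11 were tested, with 0 called higher, 7 lower and 4 not called, at a median log2 fold change of −0.27. Among all rows tested 11.6% were called higher and 24.8% lower, at a median of −0.05. The other scalings left 5 or 6 called lower. The 7 include G0s2, which is known to inhibit adipose triglyceride lipase and so acts against fat release, with 559 ± 95.5 FPKM in Zfp407 siRNA libraries and 669 ± 34.3 FPKM in Control siRNA libraries (SD, n = 6 each; log2 fold change −0.28, limma adjusted p = 0.0483). G0s2 stood at 618, 668, 646, 487, 458 and 474 FPKM in Zfp407 siRNA libraries 1 to 6, against 612 to 699 FPKM in Control siRNA libraries. Zfp407 siRNA libraries 1, 2 and 3 thus lay inside the control range, and libraries 4, 5 and 6 below it. Pnpla2, the gene of adipose triglyceride lipase, which starts the breakdown of stored fat, had 238, 258, 243, 476, 452 and 379 FPKM in Zfp407 siRNA libraries 1 to 6, against a lowest of 567, a median of 602 and a highest of 613 FPKM in Control siRNA libraries. Its Zfp407 siRNA libraries were all below the controls but far apart from each other, with libraries 1, 2 and 3 low and libraries 4, 5 and 6 in between. The fall was −0.87 on the log2 scale, with an SE of 0.17 (limma adjusted p = 0.00216, and 0.0418 against the minimum fold).

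Aqp7, the channel through which glycerol leaves the fat cell, had 15.4 ± 2.48 FPKM in Zfp407 siRNA libraries and 29.9 ± 2.69 FPKM in Control siRNA libraries (SD, n = 6 each; log2 fold change −0.92, limma adjusted p = 1.1e-05). Mgll, which cleaves the last fatty acid from glycerol, had 5.44 ± 1.65 FPKM in Zfp407 siRNA libraries and 9.06 ± 0.778 FPKM in Control siRNA libraries (log2 fold change −0.68, limma adjusted p = 0.00337). Its FPKM was 6.54, 7.53, 6.65, 4.13, 3.69 and 4.08 in Zfp407 siRNA libraries 1 to 6. Libraries 4, 5 and 6 were thus the lowest for Mgll, whereas libraries 1, 2 and 3 were the lowest for Pnpla2. Pnpla3, a relative of Pnpla2 that also sits on droplets, had 9.02 ± 1.01 FPKM in Zfp407 siRNA libraries and 13.2 ± 0.605 FPKM in Control siRNA libraries (log2 fold change −0.50, limma adjusted p = 9.6e-05). Abhd5, the co-activator that Plin1 holds, was not called, with a log2 fold change of −0.08 (limma adjusted p = 0.281). The lipase gene Lipe was not called either, with a log2 fold change of 0.19 (limma adjusted p = 0.0829). It had 492 ± 46.3 FPKM in Zfp407 siRNA libraries and 432 ± 43.9 FPKM in Control siRNA libraries. Lipe was the only tested gene of this list with a fold change above 0.

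The enzymes that make the triglyceride of droplets moved in both directions. Of 12 genes 10 were tested, with 3 called higher, 3 lower and 4 not called, and a median log2 fold change of −0.08. Among all rows tested 11.6% were called higher and 24.8% lower, with a median of −0.05. Agpat9, an enzyme of the first step of glycerolipid synthesis, was past the minimum fold, with 121.5 ± 5.30 FPKM in Zfp407 siRNA libraries and 72.4 ± 1.17 FPKM in Control siRNA libraries (SD, n = 6 each; log2 fold change 0.74, limma adjusted p = 1.7e-08). Both enzymes of the last step were called and in opposite directions. Dgat1 had 189 ± 11.6 FPKM in Zfp407 siRNA libraries and 235 ± 9.98 FPKM in Control siRNA libraries (log2 fold change −0.31, limma adjusted p = 3.3e-04). Dgat2 had 180.2 ± 27.1 FPKM in Zfp407 siRNA libraries and 146 ± 5.07 FPKM in Control siRNA libraries (log2 fold change 0.29, limma adjusted p = 0.0202). Agpat2, which acts between them, was lower by 0.19 on the log2 scale (limma adjusted p = 0.00331). After rescaling without short-RNA and mitochondrial rows 1 gene of this list was called higher and 2 lower.

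Of 12 transcription factors known to act on droplet genes, all tested, 2 were called higher, 2 lower and 8 not called, a share near the 36.4% called over all rows. Their median log2 fold change was −0.04. Pparg, the master regulator of fat cells, had 244 ± 21.9 FPKM in Zfp407 siRNA libraries and 255 ± 6.39 FPKM in Control siRNA libraries (SD, n = 6 each; log2 fold change −0.07, limma adjusted p = 0.369). Nr1h3, the liver X receptor of fat and liver, had 32.1 ± 3.12 FPKM in Zfp407 siRNA libraries and 51.5 ± 5.40 FPKM in Control siRNA libraries (log2 fold change −0.66, limma adjusted p = 8.0e-05). Cebpa, a factor that acts with Pparg, had 111 ± 11.7 FPKM in Zfp407 siRNA libraries and 84.2 ± 2.68 FPKM in Control siRNA libraries (log2 fold change 0.39, limma adjusted p = 4.5e-04). Srebf1, a factor of lipid synthesis, was higher by 0.23 and Ppard, another PPAR, changed by −0.20 (limma adjusted p = 0.0455 for Srebf1 and 0.0282 for Ppard).

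**Figure D4:**
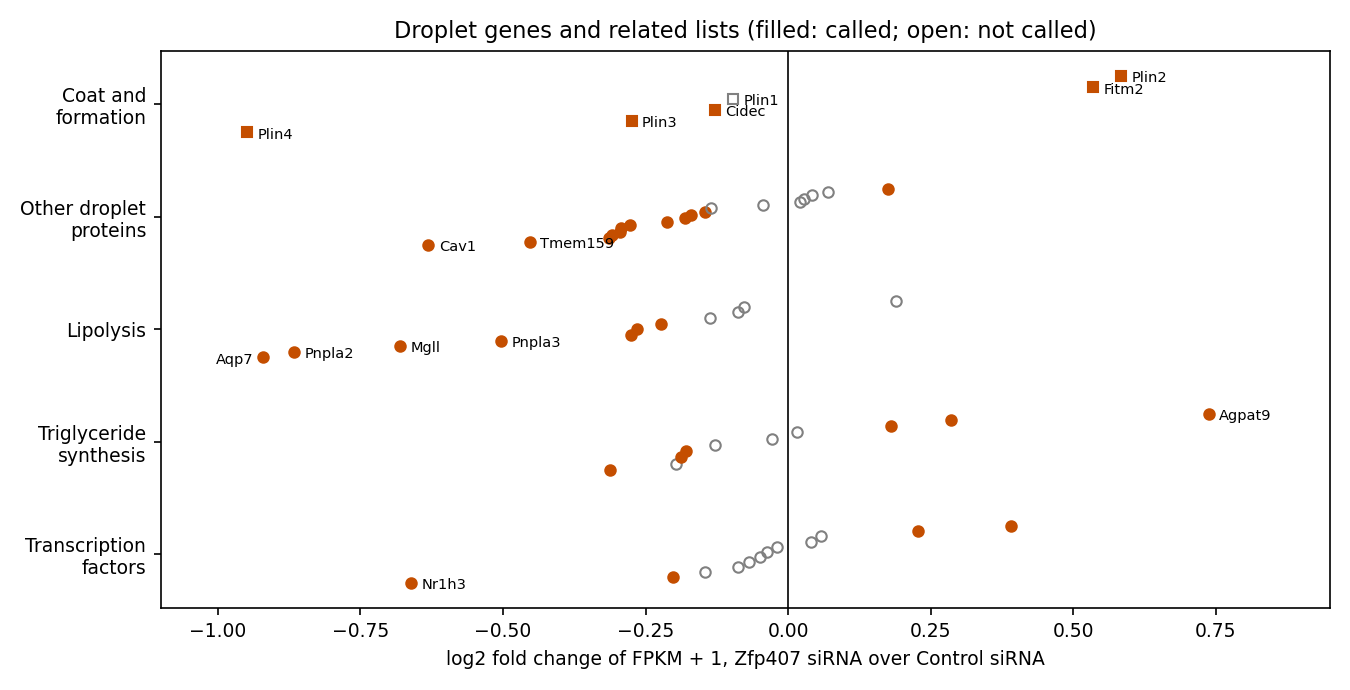
The log2 fold change of FPKM + 1, Zfp407 siRNA over Control siRNA, of each tested gene in 5 groups, filled where the gene was called and open where it was not; squares are the coat and formation genes. The squares spread from −0.95 to 0.58, the lipolysis genes called all lie left of 0, and the enzymes of triglyceride synthesis called lie on both sides.

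Across the libraries, summed FPKM ran from 2772929 to 3748488, and relative depth, estimated from low rows, from 0.881 to 1.15 of Control siRNA library 1. The mitochondrial share of FPKM was 19.4% to 32.8% in Zfp407 siRNA libraries, highest in library 6, and 22.7% to 25.3% in Control siRNA libraries. Zfp407 had 1.79 ± 0.208 FPKM in Zfp407 siRNA libraries and 2.83 ± 0.178 FPKM in Control siRNA libraries (SD, n = 6 each; log2 fold change −0.46, limma adjusted p = 8.0e-05), with no overlap. It was at least 1.792 FPKM in Zfp407 siRNA libraries 1, 2 and 3. In libraries 4, 5 and 6 it was at most 1.647 FPKM. Plin2 and Plin4 split between the same libraries, whereas Plin1, Plin3, Fitm2 and Cidec did not. The columns do not show the siRNA, so a difference between the siRNAs was not tested. Over all genes 3648 rows were called lower and 1712 higher, against 3146 and 2307 with each library centred on its median, and 3449 and 839 after rescaling without short-RNA and mitochondrial rows. Within an arm, what 1 read is worth in FPKM was compared between odd and even libraries. It differed in 5.4% of 167 low rows in the Control siRNA arm and 3.1% of 192 in the Zfp407 siRNA arm. Between the arms it was not the same for 207 of 806 low rows (25.7%, a log2 difference over 0.01). The 90th percentile of the size was 0.203, with differences of 0.5 or more left out. The changes of Plin1, Cidec and the joint row were smaller than that percentile. So were some called changes in the lists, among them Faf2 (log2 fold change 0.18), Acsl1 (0.18), Agpat2 (−0.19) and Ubxn4 (−0.15). The part of this difference between the arms in any of these changes was not tested.

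All 9 adipocyte markers were tested, with sums of 16681 to 21447 FPKM in Zfp407 siRNA libraries and 18183 to 22500 FPKM in Control siRNA libraries. Of these, 0 were called higher and 5 lower, with a median log2 fold change of −0.22, and with each library centred on its median 1 was called higher and 5 lower. Over all rows tested 24.8% were called lower, with a median of −0.05. The 5 called lower in the main test were Lep (log2 fold change −0.96), the fatty acid transporter gene Cd36 (−0.48), Cfd (−0.32), Adipoq (−0.29) and the glucose transporter gene Slc2a4 (−0.22). The 4 not called were Retn (0.14), Lpl (0.10), Fabp4 (−0.03) and Pparg (−0.07). Slc2a4, the gene of GLUT4, had 88.5 ± 8.19 FPKM in Zfp407 siRNA libraries and 103 ± 2.77 FPKM in Control siRNA libraries (SD, n = 6 each; limma adjusted p = 0.00853). Preadipocyte and fibroblast markers were also present, with sums of 1970.4 to 2589 FPKM in Zfp407 siRNA libraries and 2482 to 2769 FPKM in Control siRNA libraries. Of the 7 tested, 2 were called lower, Col1a1 (log2 fold change −0.34) and Col3a1 (−0.23), and 5 were not called, where 24.8% of all rows tested were called lower. Those not called were Acta2 (0.15), Dlk1 (0.07), Pdgfra (0.01), Thy1 (−0.08) and Pdgfrb (−0.15). Median centring left 1 called lower, and quantile normalization 0. Of the brown and beige markers 2 were tested and neither was called. Cox8b averaged 24.4 FPKM in Zfp407 siRNA libraries and 24.5 FPKM in Control siRNA libraries. Ppargc1a averaged 6.79 FPKM in Zfp407 siRNA libraries and 6.90 FPKM in Control siRNA libraries. Ucp1, not tested, averaged 0.0064 FPKM in Zfp407 siRNA libraries and 0.0032 FPKM in Control siRNA libraries. The 5 macrophage markers found summed to 0.599 to 1.15 FPKM in Zfp407 siRNA libraries and 0.670 to 0.934 FPKM in Control siRNA libraries, with Emr1 at 0 throughout, and the 4 endothelial markers to under 1 FPKM in every library. In bulk RNA fewer adipocytes and less of a transcript per adipocyte cannot be told apart, and the part of the lower adipocyte markers in the lower droplet transcripts was not tested.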

How the data were processed

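RNA of 12 3T3-L1 libraries had been sequenced. Per the file headers, the authors' table gives FPKM per gene and library, made before deposit, and the authors' own comparison with a log2 fold change, a test statistic (a score), a p-value and a q-value. Cufflinks 2.0.2, TopHat2 2.0.5, SAMtools 0.1.18.0 and Bowtie2 2.0.0.7 were used, per the submitters' processing notes. No source used here names the genome build; 99.6% of 18457 protein-coding rows overlapped their gene in GENCODE M21 (GRCm38), so positions are given on that build, counted from 1. FPKM values hold no read totals, so absolute depth is unknown.

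The main test was limma 3.58.1 in R 4.3.3 (eBayes with a trend) on log2(FPKM + 1). It was two-sided and covered 14706 rows whose mean reached 1 FPKM, with p-values adjusted by Benjamini-Hochberg and called under 0.05. Fold changes are on that scale, which understates low genes. The limma treat test used a minimum fold of 1.2. Exact permutation tests used all 924 divisions. Fits were tested on simulated data. Depth ratios came from the most frequent ratio of low values. A read's worth was compared in rows under a mean of 0.5 FPKM whose values were whole multiples within 2%, leaving out differences of 0.5 or more on the log2 scale. Alternatives changed the pseudocount (0.1), filter (none or 5), scaling, trend, minimum fold and libraries, or summed all rows of a gene. All 10 members were named, and of each list up to 4 called genes with the largest change. Abhd5, Lipe, G0s2, Pparg, Acsl1, Faf2, Ubxn4 and the tested adipocyte, preadipocyte, brown and beige markers were named besides, after their values were seen. Members and lists were chosen with earlier results of these data known.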

Additional observations from a re-analysis of the deposited data

Results flagged for a closer look

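Of 20 sets of 6 values (each member row in each arm), 2 held a library far from the other 5 by Dixon's gap test; chance flags about 1 in 20 sets of normally spread values, a rate that does not hold for rows near 0 such as Fitm1 and Plin5. Cidea stood at 0.957 FPKM in Control siRNA library 2, while the other Control siRNA libraries lay between 0.463 and 0.574 FPKM. Fitm1 was listed at 0.0328 FPKM in Control siRNA library 3 and at 0 in the other Control siRNA libraries, so that its gap was the whole range by construction.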

How the results depend on the processing

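Plin2, Plin4 and Fitm2 kept their direction and their call in all 21 alternatives, with log2 fold changes of 0.53 to 0.62 for Plin2, −1.01 to −0.91 for Plin4 and 0.48 to 0.59 for Fitm2. Plin3 lost its call in 1 of 21, the minimum fold of 1.2, with a range of −0.33 to −0.23. Cidec lost its call in 14 (range −0.24 to −0.09) and the joint row of Bscl2 and Hnrnpul2 in 4 (range −0.22 to −0.11), and Plin1 gained one in 1 (range −0.15 to −0.06). No direction was reversed. Of the 21 alternatives, 1 summed all rows of a gene. It repeated the main fit and could change no call here, since no member had several rows. Against the minimum fold 856 rows and 3 of the members were called; the test asks for more than a difference from 0. In the other alternatives 4 to 6 members were called. Leaving out 1 library in turn moved the difference in the Plin2 share over 11.3 to 12.5 percentage points and in the Plin4 share over −13.2 to −12.2 points. No paired analysis was possible because the columns of the Zfp407 siRNA arm carry no sample number or siRNA that ties them to a sample. Precision is limited by 6 libraries per arm, by the unknown siRNA of each column and by levels near 0 for Plin5 and Fitm1.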
